A study of Homo sapiens with 2 samples.

Results

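The genes described are 10 carriers of the early secretory pathway: the p24 proteins TMED2, TMED4, TMED7, TMED9 and TMED10, the cargo receptors SURF4, LMAN1 and LMAN2, and the KDEL receptors KDELR1 and KDELR2. They were chosen by name and function rather than by a rule on their values, although earlier results of these data were known. Each was found by its Ensembl ID, so the members are 10 of the 57820 IDs of the table. The measurement was ribosome profiling of HEK293 cells, an established human embryonic kidney line, in which RNase I removes mRNA outside bound ribosomes and the protected fragments are counted. Both libraries came from cells given DMSO vehicle for 12 h, replicate 1 from batch 1 and replicate 2 from batch 2, without heat shock. The study also names minocycline, but treated cells are not analysed here. The design therefore held 1 group, and the comparisons were between libraries and between genes within a library. Defining markers of the cell line could not be checked, because the files and the reference tables used here do not pair other Ensembl IDs with gene symbols. For the same reason no further genes of the pathway could be counted beside the members.

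Newly made secretory and membrane proteins leave the endoplasmic reticulum in COPII vesicles and pass through the intermediate compartment to the Golgi, while COPI vesicles bring receptors and escaped residents back. Cargo receptors bind soluble cargo in the lumen and link it to the coats. The p24 proteins are small single-pass membrane proteins that assemble with one another, bind both coats through their cytosolic tails and take part in the export of GPI-anchored proteins. KDEL receptors bind the tail signal of escaped chaperones in the Golgi and return them to the endoplasmic reticulum.

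Replicate 1 held 865838 counts and replicate 2 held 611266, a ratio of 1.42, so 10 counts stand for 11.5 and 16.4 CPM (counts per 1000000 counts of the library). The 2 IDs with the most counts took 17.6% of replicate 1 and 23.2% of replicate 2, which lowers the CPM of every other ID more in replicate 2. Ratios between libraries were therefore scaled with TMM factors, which are set by the bulk of IDs, and values by library totals are given where they differ. Every interval covers counting error only and may be too narrow, because fragments copied by PCR were counted without molecular identifiers. The labels name different batches and no independent cultures, so an SD over the 2 libraries may be partly technical, and what comes from batch cannot be told apart from what comes from replicate.

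All 10 members were measured in both libraries and stood high in the table. By mean CPM their ranks ran from 69 for KDELR1 to 1639 for TMED7 among the 16465 IDs with a count above 0, and the median of their mean CPM was 503, against 8.95 over those IDs. Of the 10, 7 reached at least 100 counts in both libraries, which 5.29% of IDs above 0 did, and all 10 reached at least 10 counts in both, which 35.8% did. The members together took 0.563% ± 0.0702 of fragments (SD, n = 2), with 0.613% in replicate 1 and 0.514% in replicate 2. The exact Clopper-Pearson bounds at 95% were 0.597% and 0.630% in the first library and 0.496% and 0.532% in the other. These intervals, which use library totals, did not overlap. The log2 ratio of replicate 2 over replicate 1 for the summed fragments was -0.26 by library totals. After TMM scaling it was smaller, at -0.15 (95% interval -0.21 to -0.08). A count measures how many fragments a gene took, not the density of ribosomes along it. Coding lengths were not in the tables used here, so no level was compared between genes per length.

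**Figure D1:**
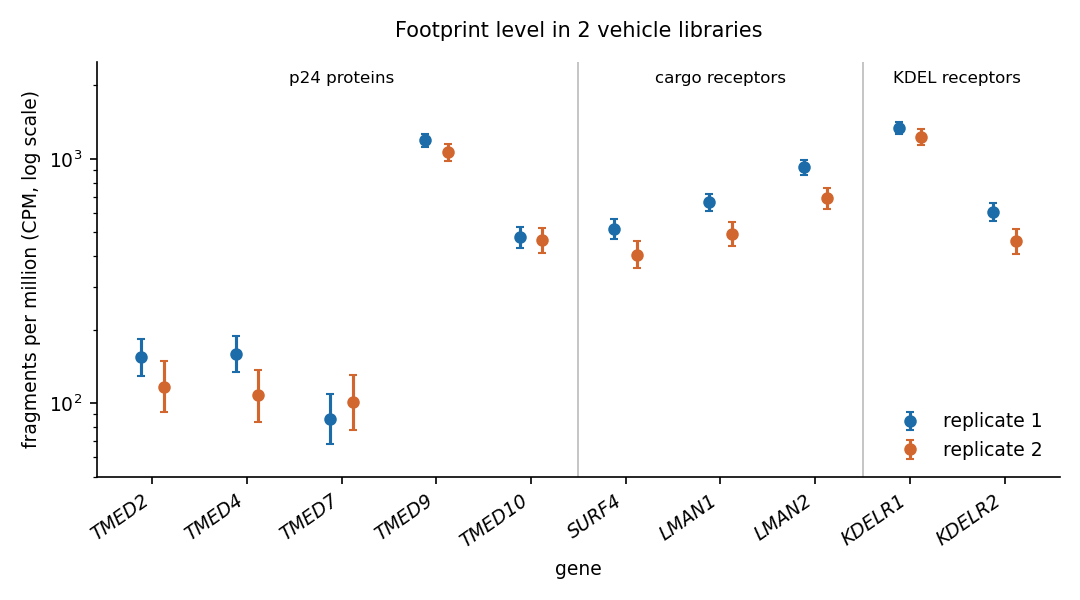
CPM (log axis) for each of the 10 genes, in replicate 1 (blue) and replicate 2 (orange), grouped by role; points are the values and bars their 95% exact Clopper-Pearson intervals. KDELR1 and TMED9 lie highest in both libraries, from 1065 to 1343 CPM, TMED2, TMED4 and TMED7 lowest, from 86.1 to 159 CPM, and TMED7 is the gene whose point is higher in replicate 2.

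Among the p24 proteins, TMED9 took most of the fragments. TMED9 (ENSG00000184840.7), an alpha-subfamily p24 protein, had 1033 fragments in replicate 1 and 651 in replicate 2, which is 1193 and 1065 CPM (1129 ± 90.6, SD, n = 2). Its alpha-subfamily relative TMED4 (ENSG00000158604.10) had 138 and 66 fragments, or 159 and 108 CPM (134 ± 36.4, SD, n = 2). The 2 alpha genes were thus split 7.49 to 1 in fragments in replicate 1 (95% exact binomial interval 6.26 to 9.01) and 9.86 to 1 in replicate 2 (7.65 to 12.9). Both intervals lie far above 1, so TMED9 took more fragments than TMED4 in each library, and this split does not depend on how libraries are scaled. The split itself did not differ between libraries beyond counting error, with a ratio of replicate 2 over replicate 1 of 1.32 (95% exact conditional interval 0.959 to 1.82).

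TMED10 (ENSG00000170348.4), the delta-subfamily member, followed with 413 and 284 fragments, 477 and 465 CPM (471 ± 8.76, SD, n = 2). Its values differed by less than the counting interval of either library. TMED2 (ENSG00000086598.6), the beta-subfamily member and a partner of TMED10 in p24 complexes, had 134 and 71.5 fragments, 155 and 117 CPM (136 ± 26.7, SD, n = 2). TMED10 took 3.08 times as many fragments as TMED2 in replicate 1 (2.53 to 3.77) and 3.94 times as many in replicate 2 (3.04 to 5.18), again in the same direction in both. The change in this split, 1.28 (0.916 to 1.80), included 1. TMED7 (ENSG00000134970.13), a gamma-subfamily member, had 74.58 and 61.75 fragments, 86.1 and 101 CPM (93.6 ± 10.5, SD, n = 2). It was the lowest member in both libraries and the only member with a higher CPM in replicate 2. TMED2 took 1.79 times as many fragments as TMED7 in replicate 1 (1.34 to 2.40) and 1.16 times in replicate 2 (0.815 to 1.66), so the order of these 2 genes exceeded counting error in replicate 1 and not in replicate 2.

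By CPM the 3 cargo receptors were all higher in replicate 1, and LMAN2 took the most fragments of them. The same direction held for 9 of the 10 members and, by library totals, for 66.5% of the 2241 IDs compared further on. SURF4 (ENSG00000148248.9), the human relative of yeast Erv29 and an export receptor for lipoproteins and other soluble cargo, had 449 and 248 fragments, 519 and 406 CPM (462 ± 79.8, SD, n = 2). LMAN1 (ENSG00000074695.5), the mannose-binding lectin ERGIC-53 that carries coagulation factors with its partner MCFD2, had 576 and 301 fragments, 665 and 492 CPM (579 ± 122, SD, n = 2). LMAN2 (ENSG00000169223.10), the related lectin VIP36, had 799 and 422 fragments, 923 and 690 CPM (807 ± 164, SD, n = 2). For each of the 3, the counting intervals of the 2 libraries in CPM, which use library totals, did not overlap. Among the other members this held for KDELR2 too, at 558 to 663 and 408 to 517 CPM. How many of those 2241 IDs had CPM intervals that did not overlap was not counted, so no share of IDs stands beside these members. By a looser criterion, a 95% ratio interval by library totals wholly towards replicate 1, 6 of the 10 members were counted. Of the 2241 IDs, 31.4% met that criterion. The split between the 2 lectins was nearly the same in both libraries: LMAN2 took 1.39 times the fragments of LMAN1 in replicate 1 (1.24 to 1.55) and 1.40 times in replicate 2 (1.21 to 1.63). The ratio of the 2 splits was 1.01 (0.839 to 1.22).

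KDELR1 (ENSG00000105438.4) took more fragments than any other member in both libraries. It had 1163 fragments in replicate 1 and 753 in replicate 2, 1343 and 1232 CPM (1288 ± 78.7, SD, n = 2). KDELR2 (ENSG00000136240.5), the other KDEL receptor among the members, had 527.17 and 281 fragments, 609 and 460 CPM (534 ± 105, SD, n = 2). KDELR2 took 0.453 fragments for each one on KDELR1 in replicate 1 (0.408 to 0.503) and 0.373 in replicate 2 (0.324 to 0.429). Of the 5 pairs compared, this was the one whose split differed between libraries beyond counting error, with a ratio of 0.824 (0.691 to 0.981), and its upper bound lay close to 1. That call was lost, at 0.874 (0.746 to 1.02), when the IDs with non-whole values beside KDELR2 in the table, described further on, were added to it. These 5 intervals were not adjusted for their number.

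By the values of the single IDs, KDELR1, TMED9, LMAN2 and LMAN1 held the first 4 places in both libraries, and lower places were less settled. KDELR1 and TMED9 together took 41.4% of the members' fragments in replicate 1 and 44.7% in replicate 2. KDELR1 exceeded TMED9 1.13-fold in replicate 1 (1.03 to 1.23) and 1.16-fold in replicate 2 (1.04 to 1.29). TMED9 exceeded LMAN2 1.29-fold (1.18 to 1.42) and 1.54-fold (1.36 to 1.75). LMAN1 and KDELR2 did not differ beyond counting error in either library, at 1.09-fold (0.969 to 1.23) and 1.07-fold (0.907 to 1.26). KDELR2, TMED10 and SURF4 changed places between libraries: TMED10 was 7th in replicate 1 and 5th in replicate 2. KDELR2 exceeded TMED10 1.28-fold in replicate 1 (1.12 to 1.45) but not in replicate 2, at 0.989 (0.836 to 1.17). TMED10 over SURF4 was within counting error in both libraries, at 0.920 (0.803 to 1.05) and 1.15 (0.962 to 1.36). A gap followed, since SURF4 exceeded TMED2 3.35-fold (2.76 to 4.09) and 3.44-fold (2.64 to 4.54). TMED2 and TMED4 stood in opposite order in the 2 libraries, but within counting error in each, at 0.971 (0.760 to 1.24) and 1.09 (0.770 to 1.55). TMED4 exceeded TMED7 1.84-fold in replicate 1 (1.38 to 2.47) but 1.06-fold in replicate 2 (0.741 to 1.53). Of the 9 neighbouring pairs in this order, 4 thus had the same direction with both intervals above 1.

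The libraries were then set against each other gene by gene. After TMM scaling all 10 members lay within 1.5-fold, as did 79.7% of the 2241 IDs tested, which are those whose counts sum to 100 or more over both libraries. No member had a 95% interval wholly beyond 2-fold in either direction, which 0.491% of those IDs had towards replicate 2 and 0.312% towards replicate 1. The log2 ratio of replicate 2 over replicate 1 was below 0 for 8 of 10 members, against 56.8% of IDs, and by library totals for 9 of 10, against 66.5%. TMED10 is the member whose sign turned, from 0.07 with TMM to -0.04 by library totals. The median log2 ratio was -0.26 for the members and -0.07 for the IDs tested, or -0.37 and -0.18 by library totals. The members' median absolute log2 ratio, 0.29, was near the 0.30 of all IDs tested.

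For 5 members the 95% interval of the ratio lay wholly below 0, against 22.3% of IDs, and for 0 it lay wholly above 0, against 15.6%. LMAN1 had a log2 ratio of -0.32 (-0.53 to -0.12), LMAN2 -0.31 (-0.48 to -0.14), KDELR2 -0.30 (-0.51 to -0.08), SURF4 -0.24 (-0.47 to -0.02) and TMED4 -0.45 (-0.90 to -0.02). With 99% intervals, tried after seeing the data, 3 members remained below 0, LMAN1, LMAN2 and KDELR2, against 15.4% of IDs. KDELR1 and TMED9 had ratios of -0.02 (-0.15 to 0.12) and -0.05 (-0.20 to 0.09). TMED7 had 0.34 (-0.17 to 0.84). These intervals hold counting error only. The interquartile range over all IDs tested ran from -0.35 to 0.25, and 8 of the 10 members lay inside it, TMED4 below it and TMED7 above it. Most members thus lay in the range seen between these libraries for all IDs tested. That range includes IDs with fewer counts and more counting error than most members. No range was computed for IDs of each member's own depth, so whether a difference was usual at that depth was not tested.

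**Figure D2:**
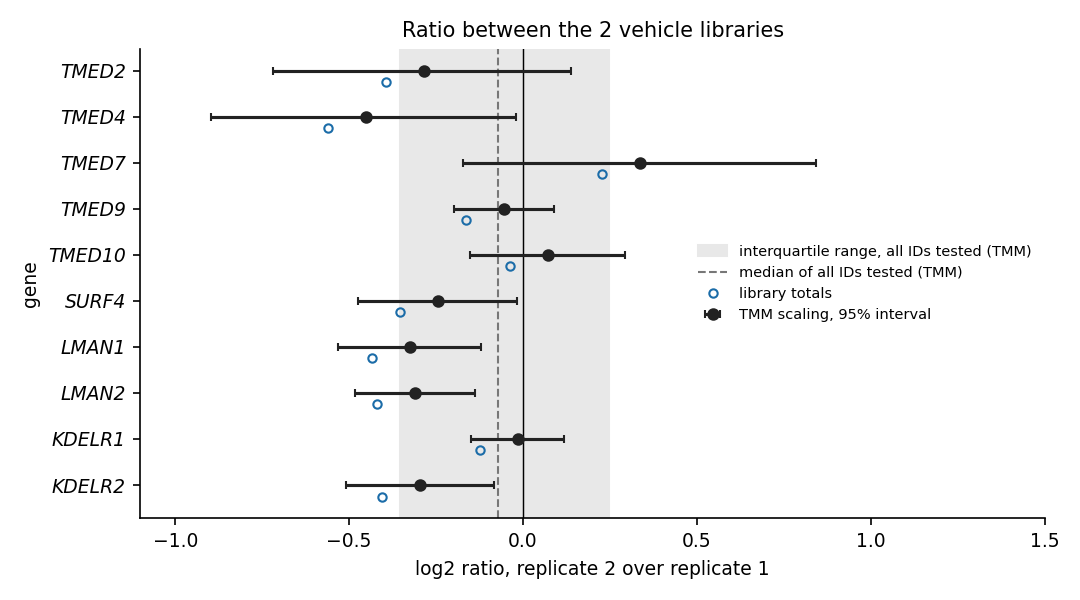
Log2 ratio of replicate 2 over replicate 1 for each gene with TMM scaling (black points, bars are 95% exact binomial intervals) and with library totals (open blue circles); the grey band is the interquartile range and the dashed line the median of the 2241 IDs tested. The 3 cargo receptors, KDELR2 and TMED4 have intervals wholly below 0, and the points of TMED4 and TMED7 lie outside the band.

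The members were also summed by role. The 3 cargo receptors summed to 1824 fragments in replicate 1 and 971 in replicate 2, or 0.211% and 0.159% of the library. The 5 p24 genes summed to 1793 and 1134 fragments, 0.207% and 0.186%. The log2 ratio of the sums was -0.30 for the cargo receptors (95% interval -0.41 to -0.18) and -0.05 for the p24 genes (-0.16 to 0.06). Set directly against each other, which needs no scaling, the fragments of the cargo receptors relative to those of the p24 genes were 1.02 in replicate 1 and 0.856 in replicate 2, a ratio of 0.842 (95% exact conditional interval 0.755 to 0.939). Relative to the KDEL receptors the ratio was 0.870 (0.778 to 0.973). The KDEL receptors relative to the p24 genes gave 0.967 (0.868 to 1.08), which includes 1. TMED9 made up 57.6% of the p24 fragments in replicate 1 and 57.4% in replicate 2, so the p24 sum is weighted towards it. These 3 intervals were not adjusted for their number and hold counting error only. Since IDs of like counts varied between the libraries well beyond counting error, at 8.08 per degree of freedom in the chi-square statistic given next, they do not show that the roles differ beyond the spread between libraries.

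The proportions among the 10 members differed between the libraries by more than counting error. A chi-square statistic against 1 common profile was 24.8 on 9 degrees of freedom, or 2.75 per degree, where counting error of independent fragments alone gives a value near 1. Over the 1612 IDs whose summed counts lie in the range of the members, 137 to 1916 after rounding, it was 8.08 per degree, and their median log2 ratio was -0.09.

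**Figure D3:**
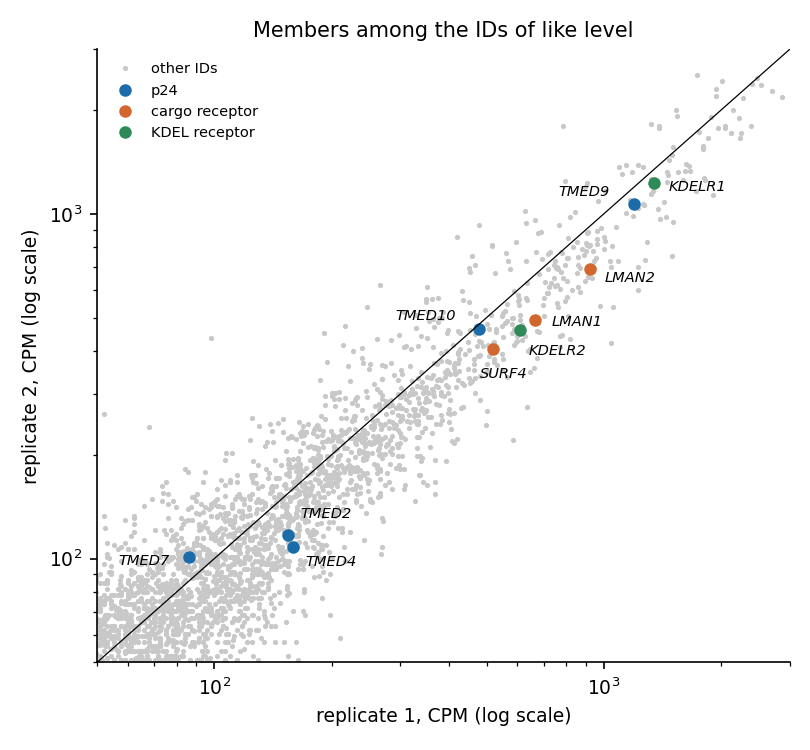
CPM in replicate 2 against CPM in replicate 1 (both axes logarithmic, cut to 50 to 3000 CPM), with p24 genes in blue, cargo receptors in orange, KDEL receptors in green, other IDs in grey and the line of equal CPM in black. The 10 members lie within the cloud of other IDs, 9 of them under the line and TMED7 above it.

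Values that are not whole may reflect fragments divided over several IDs, but the counting rule is not known here. TMED2, TMED7 and KDELR2, 3 of 10 members, had a value that is not whole in at least 1 library, against 21.6% of the 2241 IDs tested. For TMED7 the 3 IDs just before it in the table also had values that are not whole. ENSG00000243414.4 and ENSG00000251201.4 held the same values as each other, 63.08 in replicate 1 and 38.75 in replicate 2, and ENSG00000249249.1 held 13.25 and 6.75. With TMED7 these 4 IDs summed to 213.99 and 146, whole numbers within the rounding of the file, and TMED7 held 34.9% and 42.3% of those sums. RefSeq lists 2 genes that overlap TMED7, the read-through transcript unit TMED7-TICAM2 and TICAM2-AS1; which IDs they correspond to could not be settled here. The sum over the 4 IDs was 243 CPM ± 5.87 (SD, n = 2), 2.87 times the value of TMED7 alone in replicate 1 and 2.36 times in replicate 2. With TMM scaling the log2 ratio of this sum between libraries was 0.06 (-0.25 to 0.37), against 0.34 for TMED7 alone. By CPM the sum was 247 in replicate 1 and 239 in replicate 2. The higher CPM of TMED7 in replicate 2 thus did not hold over the whole run of IDs. The level of TMED7 and its last place in the order thus depend on whether and how fragments were divided among these IDs.

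KDELR2 and TMED2 held larger shares of their runs. KDELR2 with ENSG00000164535.10 and ENSG00000269781.1 on either side summed to 684.01 and 387, of which KDELR2 held 77.1% and 72.6%. The first sum is whole within rounding from 3 values that are not, while in replicate 2 each of the 3 values was whole already. TMED2 with ENSG00000247373.2 before it summed to 182 and 94, of which TMED2 held 73.6% and 76.1%. For this pair only the values of replicate 2, 71.5 and 22.5, are not whole. Such a sum is an upper limit for the member within its run only, reached if every fragment of its neighbours were its own. Fragments given to IDs elsewhere or lost are not in it. With its run, KDELR2 exceeded LMAN1 1.19-fold in replicate 1 and 1.29-fold in replicate 2, with lower 95% bounds of 1.06 and 1.10, so the 4th place of LMAN1 also depends on how fragments of the run are assigned. TMED2 with its run lay below TMED7 with its run, at 0.850 (0.694 to 1.04) and 0.644 (0.491 to 0.840), the opposite of the order of the single IDs. RefSeq further lists a gene that overlaps SURF4 (STKLD1), LMAN2 (RPS20P17) and KDELR1 (GRIN2D), and these 3 members had whole values in both libraries. It also lists pseudogenes named after members, TMED2P1, TMED10P1 and TMED10P2; fragments that match both a gene and its copy may be split or lost, and TMED10 had whole values in both libraries.

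**Figure D4:**
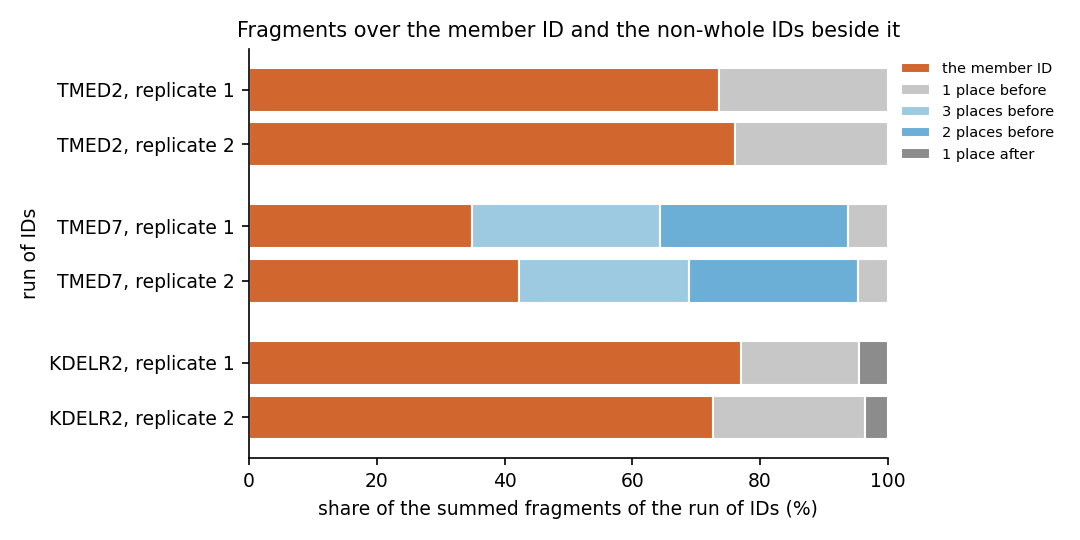
Share (percent) of the summed fragments of a run of table-neighbouring IDs with non-whole values that fell on the member ID (orange) and on each neighbour (blue and grey, by place in the table), for TMED2, TMED7 and KDELR2 in each replicate. TMED7 holds 34.9% and 42.3% of its run, KDELR2 77.1% and 72.6%, and TMED2 73.6% and 76.1%.

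RefSeq promoter windows (GRCh38.p14) were found for 7 of the 10 members, all but TMED4, TMED9 and KDELR2. The 250 bases before the start were searched on both strands for letters of endoplasmic reticulum stress elements, since many genes of this pathway are known targets of the factors that bind them. GCCACGT, the core of an element bound by XBP1, occurred in TMED2 and SURF4 and in 2.79% of 34943 promoter windows. The shorter CCACG, which GCCACGT contains, occurred in 6 of the 7, all but LMAN2, and in 33.5% of windows. The full ERSE (CCAAT and CCACG with 9 bases of any kind between them) and ERSE-II (ATTGG and CCACG with 1 base between them) were found in 0 of the 7 windows, and in 0.0744% and 0.0515% of all. The motifs were chosen after the sequences were seen, so the counts of members beside the shares of windows are no test of enrichment. The 60 bases around the GCCACGT match are shown because this is the one longer motif that 2 members share; both lie on the reverse strand of the gene, so that the capitals read ACGTGGC. TMED2 is at chr12:123584431-123584490, plus strand, with the match starting 95 bases before the start, and SURF4 at chr9:133376080-133376139, minus strand, with the match starting 53 bases before it.
TMED2: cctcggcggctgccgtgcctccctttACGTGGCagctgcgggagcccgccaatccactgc
SURF4: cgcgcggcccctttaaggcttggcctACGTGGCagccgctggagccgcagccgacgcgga
The footprint counts do not measure promoter activity, and no stress condition is analysed here, so a match is a description of the sequence only. In fragments these 2 genes stood on either side of the gap in the order, SURF4 at 462 CPM and TMED2 at 136 CPM.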

How the data were processed

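The authors' deposited table gives estimated counts of ribosome-protected fragments of 27 to 29 nt per Ensembl ID for 2 libraries of 1 group, unscaled, per the labels. Per the submitters' processing notes, hg19 was the build. Aligner, counting tool, annotation, strand setting and the rule for dividing fragments: not given in the sources used here. Gel slices held 20 to 38 nt, and ribosomal RNA was not depleted, per the labels' protocols.

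CPM used the sum of all IDs. For ratios, values were rounded and scaled by TMM (edgeR 4.0.16 in R 4.3.3, on 6965 IDs whose counts sum to 20 or more), with conditional exact binomial intervals. Splits between genes used the same interval within a library and a conditional odds ratio between libraries (scipy 1.17.1). DESeq2 1.42.0 size factors were an alternative. No p-value was computed: 1 group gives no contrast, and 2 libraries allow no two-sided p below 0.5 in a paired exact permutation test. The interval step was tested on simulated counts that held counting error only, so that test does not cover the spread between libraries.

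All 10 members are named, by the rule. Members, lists and pairs were chosen with earlier results of these data known, and promoter motifs after the sequences were seen. Density per codon, the pathway list and cell line markers could not be run.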

Additional observations from a re-analysis of the deposited data

How the results depend on the processing

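The median level of the members, 503 CPM, became 630.4 once the total left out the 2 highest IDs and 671 once it left out the 10 highest, and their summed share of 0.563% became 0.706% and 0.752%; both follow from the smaller totals. Without 1 replicate the median level ran from 462 to 564 CPM and the share from 0.514% to 0.613%. The 18 of 2241 IDs beyond 2-fold (11 towards replicate 2 and 7 towards replicate 1) became 7 and 11 by library totals. They became 95 with a 1.5-fold limit and 11 with 99% intervals, each of 2241 IDs, and 85 of 6965 IDs with at least 20 summed counts. Under each of these 0 members were called, which says little about 10 members where so few IDs were called. The 5 members with intervals below 0 became 3 with 99% intervals and 6 by library totals, where TMED9 was added; they stayed 5 with DESeq2 size factors, with TMM over all IDs above 0 and with TMM without the 2 highest IDs. TMED10 was the member whose ratio changed sign, by library totals and with TMM over all IDs above 0 (-0.01), inside its interval each time. The median ratio of the members kept its sign under every scaling run. The sums over neighbouring IDs, chosen after the data were seen, gave 182 CPM for TMED2, 243 for TMED7 and 712 for KDELR2. With them the log2 split of TMED2 over TMED7 turned from 0.53 to -0.43, that of KDELR2 over KDELR1 moved from -1.28 to -0.86 and that of TMED10 over TMED2 from 1.80 to 1.39. Density per codon and the order by it were not run, since coding lengths were not in the tables used. No paired analysis was possible because the series holds 1 group. Depth limits TMED2, TMED4 and TMED7, whose intervals are the widest.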
